A study of Homo sapiens with 2 samples.

Results

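Fatty acid oxidation was followed through 32 genes that code for its mitochondrial and peroxisomal enzymes and for a few of its regulators and carriers. They were listed by name, with earlier results of these data known. For each gene the TPM values of its transcripts (an abundance corrected for transcript length and library size) were summed, and the library grown without doxycycline (Dox), here called uninduced, was set against the induced library, grown with it. All 32 members were found among the 34237 genes with a named transcript, and 31 of them had a mean of at least 1 TPM over both libraries, as did 11582 genes in all. PDK4 was the member below that level. By the organelle each protein is known from, 18 members were counted as mitochondrial and 7 as peroxisomal, 3 (CRAT, ECI2 and ACAD11) are known from both and were kept apart, and 4 are regulators or carriers.

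The cells were HepG2, a human liver cancer line that keeps many hepatocyte functions, carrying a cassette that switches on SAMD4B, an RNA-binding protein related to fly Smaug, when Dox is added. Both groups carry the cassette. The uninduced group and the group given 1 µg/ml Dox for 48 h hold 1 library of polyadenylated RNA each, so no spread between replicates could be had, no test between the conditions is given, and each difference below is a difference between 2 libraries. Whether the line is a single clone is not given in the sources used here. An effect of Dox itself cannot be told apart from an effect of SAMD4B, since cells given Dox without the cassette were not analysed here.

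Fatty acids are broken down in both organelles. Mitochondria take up long-chain acyl groups through the carnitine shuttle and shorten them in repeated rounds of dehydrogenation, hydration, a second dehydrogenation and thiolysis, passing electrons to the respiratory chain through the electron transfer flavoproteins. Peroxisomes start on very long, branched and bile acid side chains with oxidases that make hydrogen peroxide. In hepatocytes the nuclear receptor PPARA switches on many of these genes during fasting.

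The promoters of some members bear on the pairs and isoforms described below and are shown first. RefSeq (GRCh38.p14) gave 31 promoter windows, each with 250 bases before a transcription start and 50 after it, for 24 of the 32 members. HADHA and HADHB, the paired subunits of the mitochondrial trifunctional protein, are transcribed away from each other. Their RefSeq starts are 307 bases apart on chromosome 2, and their windows share 194 bases (26244689 to 26244882). The leading transcripts measured here are annotated with other starts, 26244726 for HADHA and 26244895 for HADHB, both within the stretch printed below. The 250 bases before the HADHB start, chr2:26244689-26244938 on the plus strand, are printed with the shared part in capitals.
HADHB: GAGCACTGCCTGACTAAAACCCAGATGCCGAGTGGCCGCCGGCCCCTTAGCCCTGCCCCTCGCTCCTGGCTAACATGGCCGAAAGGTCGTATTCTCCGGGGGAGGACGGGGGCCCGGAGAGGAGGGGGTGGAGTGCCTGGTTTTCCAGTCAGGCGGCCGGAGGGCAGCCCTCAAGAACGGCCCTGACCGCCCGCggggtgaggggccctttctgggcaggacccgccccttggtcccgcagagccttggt

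SCP2 has 2 starts, and the data list transcripts from each. The upstream start gives the long protein SCPx, a peroxisomal thiolase joined to a sterol carrier domain, and the internal start gives the sterol carrier protein alone. The bases before each RefSeq start are given 5′ to 3′ on the plus strand, for chr1:52927026-52927275 and chr1:53014687-53014936. The main upstream transcript, ENST00000371514, is annotated to start at 52927229, within the first stretch. Capitals mark the letters GGGCGG (a GC box), CCAAT and AGGTCA, searched on both strands.
SCP2 upstream: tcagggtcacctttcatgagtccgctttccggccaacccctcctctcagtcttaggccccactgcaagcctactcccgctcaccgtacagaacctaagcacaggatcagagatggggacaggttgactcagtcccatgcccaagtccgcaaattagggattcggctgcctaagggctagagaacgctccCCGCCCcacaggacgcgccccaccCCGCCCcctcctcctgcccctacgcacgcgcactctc
SCP2 internal: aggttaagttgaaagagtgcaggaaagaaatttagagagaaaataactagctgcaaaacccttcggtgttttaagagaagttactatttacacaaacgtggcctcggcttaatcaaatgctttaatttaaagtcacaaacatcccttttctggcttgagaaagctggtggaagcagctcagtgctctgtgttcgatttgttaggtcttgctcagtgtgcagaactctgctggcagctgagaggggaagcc

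The upstream stretch holds 2 GC boxes and 14 CG dinucleotides, and the internal stretch holds none of these motifs and 4 CG dinucleotides. Over whole windows, a GC box was found in 25 of the 31 member windows (80.6%) and in 45.0% of all 35116 windows. The member windows had a median of 26 CG dinucleotides and all windows a median of 14, so the 2 sets differ in base composition.

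FABP1, which codes for the liver fatty acid binding protein, was the most abundant member without Dox, and its promoter window held 7 CG dinucleotides. The window holds a TATAAA, found in 11.5% of all windows and, among the 24 members with a window, also for ACADVL and ANGPTL4. It also holds AGGTCA, the half-site that PPARA and related receptors recognise, found in 13.8%. Of the 24 members with a window, only FABP1 and ACAD10 held AGGTCA. The 8 without a window (CRAT, ACAD11, ACOX2, EHHADH, ACAA1, DECR1, DECR2 and ETFDH) were not searched. No member window held the paired form (AGGNCA, any base, then AGGTCA), which 0.0854% of all windows hold. No match says only that these letters are not in this window. The main FABP1 transcript, ENST00000295834, is annotated to start at 88128116, upstream of the TATAAA and of the RefSeq start used here. The bases before the RefSeq start are chr2:88128063-88128312 on the minus strand. They show an AGGTCA in the opposite direction 68 bases before that start and the TATAAA 31 bases before it, both in capitals.
FABP1: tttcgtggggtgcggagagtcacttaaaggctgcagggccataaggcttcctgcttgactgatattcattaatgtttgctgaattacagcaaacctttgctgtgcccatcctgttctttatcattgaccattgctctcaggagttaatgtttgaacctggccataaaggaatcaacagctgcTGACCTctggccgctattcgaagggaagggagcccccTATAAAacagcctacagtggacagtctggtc

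SAMD4B itself was at 47.5 TPM uninduced and 261 induced, in the direction of its labels. TPM tables carry no depth, but steps in the low values gave an estimate of 18499682 fragments uninduced and 23720183 induced on transcripts of at least 600 nt. All 9 hepatocyte markers looked up were present in both libraries. For example, HNF4A was at 81.8 and 64.5 TPM, TTR at 83.2 and 64.5, SERPINA1 at 2554 and 2385, and APOB at 1470 and 1698 (uninduced and induced, as in all pairs of values here). APOB was the only one of the 9 that was higher when induced, their median log2 fold change was -0.17, and they summed to 24866 and 22405 TPM. Among fibroblast markers, COL1A1, COL1A2, COL3A1 and DCN were below 1 TPM in both libraries and PDGFRB was at 4.11 and 7.35 TPM. Of the blood cell markers, PTPRC and HBB were listed at 0 in both libraries, LYZ was at 1583 and 1742 TPM, CD68 at 10.7 and 11.3, and HBA1 at 4.14 and 0. Whether these levels have a part in the results below was not tested.

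As a group the members were slightly lower with Dox. Of the 31 compared, 23 had a lower value with Dox, or 74.2%, where 47.0% of all genes compared did. With the median of all genes set to 0 the count was 24, since HSD17B4, nearly level, moved to the lower side. Their median log2 fold change was -0.11, on the scale of TPM plus 1 used throughout, and that of all genes was 0.02. The differences were small. For 21 of the 31 the value differed by less than 1.2-fold, as it did for 64.2% of all genes. No member was at least 1.5-fold higher (5.32% of all genes were), and CRAT alone was at least 1.5-fold lower (3.90% of all genes were). Counted in either direction, 9.22% of all genes passed that fold. The 28 enzymes together held 2891 TPM uninduced and 2685 induced, a difference of -7.14%.

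**Figure D1:**
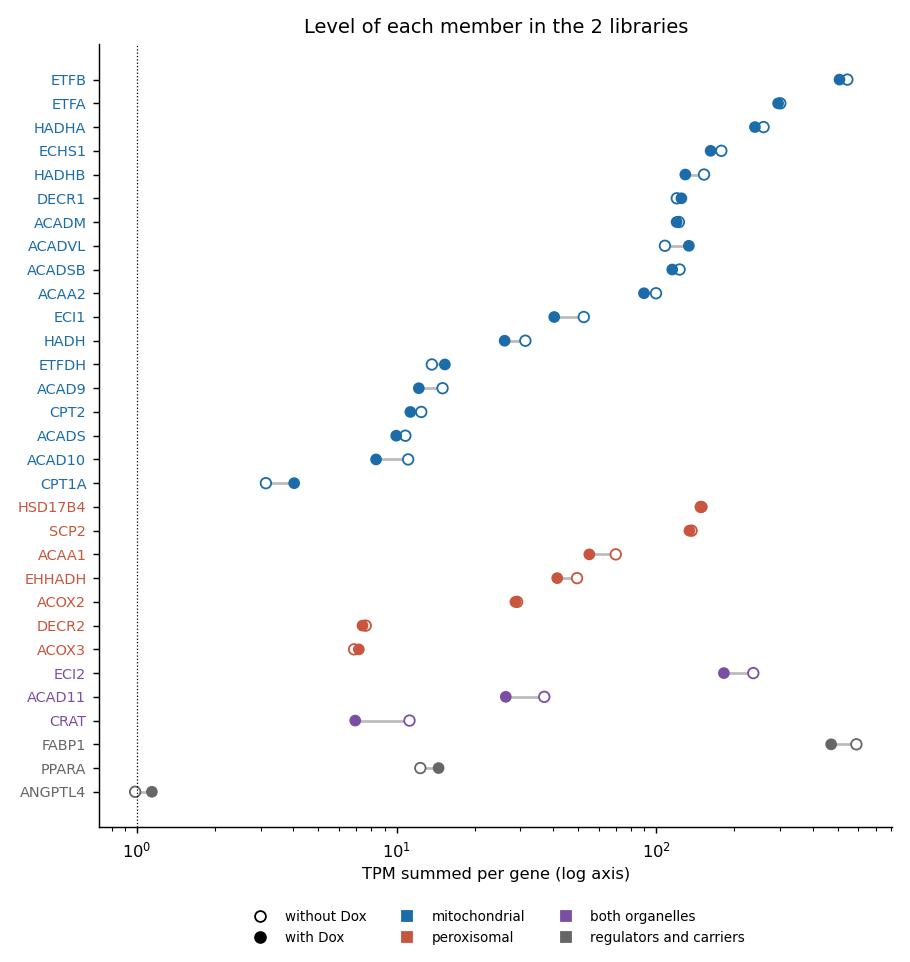
TPM of each member, summed per gene, in the library without Dox (open points) and with Dox (filled points), on a log axis and coloured by organelle. The dotted line marks 1 TPM, and PDK4, listed at 0 without Dox, is not drawn. Levels run from about 1 TPM for ANGPTL4 to 590 TPM for FABP1, while the 2 points of most members lie close together.

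Counting error was estimated from fragments. A gene's estimated fragments were divided by depth in each library, and the induced to uninduced ratio has an exact 95% binomial (Clopper-Pearson) interval, which covers counting error only and neither variation between cultures nor the sharing of fragments among transcripts. An interval could be given for 29 members. It lay wholly below 1 for 19 of them, above 1 for CPT1A, ACADVL and PPARA, and spanned 1 for the other 7. Over the 9758 genes with such an interval it lay wholly below 1 for 29.0% and wholly above 1 for 24.5%. Those genes were not matched to the members for abundance, and the interval is narrower where fragments are many. The median ratio was 0.88 for the members and 0.98 for all these genes.

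**Figure D2:**
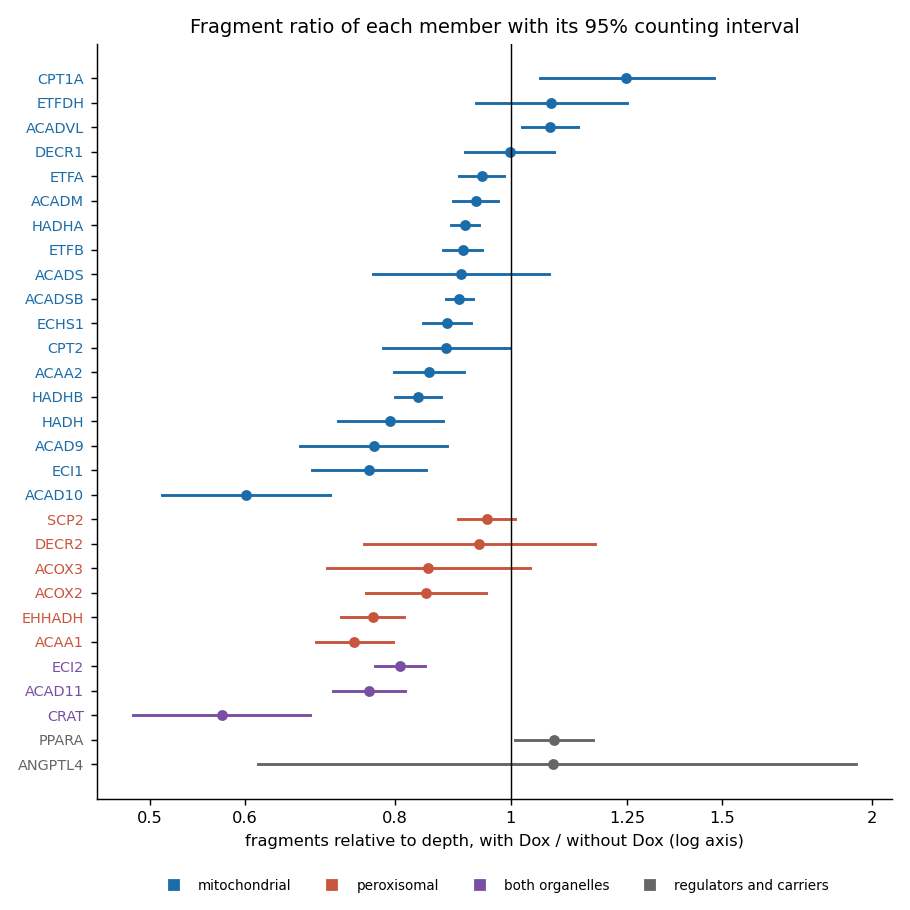
Estimated fragments relative to depth, with Dox over without Dox, for the 29 members with an estimate, on a log axis. Points are ratios and bars are 95% counting intervals. CRAT and ACAD10 lie farthest to the left, CPT1A is the farthest to the right, and ANGPTL4, with few fragments, has the widest bar.

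The carnitine shuttle, by which long-chain acyl groups enter the mitochondrion, went both ways. CPT1A, the outer membrane transferase and the regulated entry step, was at 3.14 TPM uninduced and 4.03 induced (log2 fold change 0.28, fragment ratio 1.249 with bounds 1.06 and 1.48). It lay on chromosome 11 (68754620 to 68844410) and a single transcript carried all of its TPM. CPT2, the inner membrane transferase that hands the acyl group back to coenzyme A, was at 12.5 and 11.3 TPM (-0.13). CPT2 was thus 3.97 times as abundant as CPT1A uninduced and 2.80 times induced. The exchanger SLC25A20, which carries acylcarnitines across the inner membrane and is no member here, was at 20.1 and 14.7 TPM.

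CRAT, the carnitine acetyltransferase that works on short acyl groups in both organelles, had the lowest log2 fold change of all members. It was at 11.2 TPM uninduced and 6.93 induced, a log2 fold change of -0.62, and 3.39% of all genes had a lower one. In fragments, 329 uninduced stood against 242 induced, a ratio of 0.57 (interval 0.48 to 0.68). Each of its 3 main transcripts was lower. The coding transcript ENST00000318080 was at 6.13 and 3.94 TPM, the shorter coding ENST00000393384 at 2.28 and 1.95, and ENST00000458362, annotated as a target of nonsense-mediated decay, at 2.69 and 0.95. CRAT (chromosome 9, 129094810 to 129111189) shares exon sequence with PTPA on the opposite strand, at 89.1 and 78.0 TPM, and whether strand was used in assigning fragments is not given in the sources used here.

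The acyl-CoA dehydrogenases, which take the first electrons of each round, differ in the chain length they accept. ACADM, for medium chains and known for its deficiency in newborns, was at 122 TPM uninduced and 120 induced. ACADSB, for short branched chains, was at 123 and 115 TPM. ACADS, for short chains, was much less abundant, at 10.8 and 9.97 TPM. These 3 had log2 fold changes of -0.03, -0.09 and -0.11, and the fragment ratios of ACADM and ACADSB were 0.93 (interval 0.90 to 0.98) and 0.91 (0.88 to 0.93). ACADM had 3769 and 4516 estimated fragments, and ACADSB 10043 and 11666. RABGGTB, at 209.9 and 253 TPM, shares exon sequence with ACADM on the same strand.

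ACADVL, the very long chain enzyme of the inner membrane, was the member with the highest log2 fold change, at 108 TPM uninduced and 134 induced (0.30). The leading coding transcript, ENST00000356839, was at 51.9 and 54.5 TPM. Part of the difference lay on 6 transcripts that were listed at 0 in one library and at 1 TPM or more in the other, which together held 5.39 TPM uninduced and 15.2 induced. On its protein-coding transcripts alone the log2 fold change of ACADVL was 0.08, and in fragments the ratio was 1.08 (interval 1.02 to 1.14). DLG4, at 2.54 and 5.97 TPM, shares exon sequence with it on the opposite strand.

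The less studied dehydrogenases were lower. ACAD9, which also helps assemble respiratory complex I, was at 15.0 TPM uninduced and 12.2 induced (-0.28), with a fragment ratio of 0.77 (interval 0.67 to 0.89). ACAD10 was at 11.1 and 8.34 TPM (-0.37), and its fragment ratio of 0.60 (interval 0.51 to 0.71) was next to that of CRAT. The ACAD10 values depend on the transcripts counted. Its leading coding form, ENST00000313698, was at 3.36 and 1.61 TPM, while the short coding ENST00000552706 was at 0.91 and 2.52, so that all coding transcripts together were at 5.08 and 5.13 TPM. ACAD11, counted here with both organelles, was at 37.1 and 26.3 TPM (-0.48, fragment ratio 0.76 with bounds 0.71 and 0.82). Its coding transcript ENST00000264990 was at 16.9 and 11.9 TPM, and the retained-intron transcript ENST00000496418 at 9.72 and 9.37.

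The enzymes that follow the dehydrogenases were lower in 5 of 5 cases, where 47.0% of all genes were lower. Each differed by less than 1.2-fold, as did 64.2% of all genes. HADHA, the subunit of the trifunctional protein with hydratase and long-chain dehydrogenase activity, was at 259 TPM uninduced and 240 induced (-0.11, fragment ratio 0.92 with bounds 0.89 and 0.94). HADHB, its thiolase subunit, was at 153 and 129 TPM (-0.24, fragment ratio 0.84 with bounds 0.80 and 0.87). The RefSeq windows of HADHA and HADHB share the 194 bases printed in capitals above. The intervals of the pair do not overlap, and the ratio of HADHA to HADHB was 1.70 uninduced and 1.85 induced. ECHS1, the short-chain hydratase, was at 178 and 162 TPM. The short-chain dehydrogenase HADH was at 31.3 and 26.1 TPM, and the thiolase ACAA2 at 99.8 and 89.7 TPM. Their log2 fold changes were -0.14, -0.26 and -0.15.

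HADHA carried 2 abundant transcripts that differed in direction. The coding ENST00000380649 was at 132 TPM uninduced and 143 induced. ENST00000643233, annotated for nonsense-mediated decay, was at 110 and 89.6 TPM. The coding share of HADHA was thus 52.2% and 60.2%, and on coding transcripts alone its log2 fold change was 0.10, the opposite direction to the whole gene. Salmon divides fragments that match several transcripts among them, and how much of this shift lies in that division was not tested.

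Double bonds need auxiliary isomerases and reductases. ECI1, the mitochondrial enoyl-CoA isomerase, was at 52.6 TPM uninduced and 40.5 induced (-0.37, fragment ratio 0.76 with bounds 0.68 and 0.85). Its 3 main coding transcripts were all lower, at 19.7 and 14.3, 18.5 and 15.4, and 11.9 and 8.84 TPM. ECI2, its relative found in both organelles, was at 237 and 182 TPM (-0.37, fragment ratio 0.81 with bounds 0.77 and 0.85). In ECI2, ENST00000361538 was at 118 and 100 TPM, ENST00000380118 at 79.0 and 62.6, and the retained-intron ENST00000489086 at 36.0 and 16.4.

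DECR1, the mitochondrial dienoyl-CoA reductase, was at 120 and 125 TPM (0.06), with a fragment ratio of 1.00 (interval 0.92 to 1.09). Only 3.84% of its TPM uninduced and 3.76% induced lay on transcripts annotated as coding. Its abundance was listed instead on ENST00000517597, annotated for nonsense-mediated decay, at 72.9 and 70.2 TPM, and on the processed transcript ENST00000519007 at 35.5 and 42.6. DECR2, the peroxisomal reductase, was at 7.61 and 7.39 TPM on its only matched transcript, and NME4, at 82.8 and 68.6 TPM, shares exon sequence with it on the same strand.

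The electron transfer flavoproteins, which collect electrons from all acyl-CoA dehydrogenases, include the 2 most abundant mitochondrial members. ETFB was at 545 TPM uninduced and 508 induced (-0.10), and its partner subunit ETFA at 300.4 and 295 TPM (-0.03). ETFDH, the membrane enzyme that passes the electrons to ubiquinone, was at 13.7 and 15.3 TPM (0.16, fragment ratio 1.08 with bounds 0.936 and 1.249). ETFB was 39.8 times as abundant as ETFDH uninduced and 33.1 times induced, and the ratio of ETFA to ETFB was 0.55 and 0.58. PPID, at 97.5 and 95.1 TPM, shares exon sequence with ETFDH on the opposite strand.

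Of the peroxisomal members, 2 were lower by more than the rest and 5 were nearly level in TPM. ACAA1, the peroxisomal thiolase, was at 69.8 TPM uninduced and 55.3 induced (-0.33, fragment ratio 0.74 with bounds 0.69 and 0.80), and its leading transcript ENST00000333167 was at 54.6 and 40.3. EHHADH, the L-bifunctional enzyme and a well-known PPARA target, was at 49.6 and 41.6 TPM (-0.25, fragment ratio 0.77 with bounds 0.72 and 0.81). The other 5 had log2 fold changes between -0.04 and 0.05.

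Among these, HSD17B4, the D-bifunctional enzyme needed for very long and branched chains, was the most abundant peroxisomal member, at 148 TPM uninduced and 150 induced. Its leading coding transcript ENST00000510025 was at 89.8 and 81.3 TPM. Transcripts listed at 0 in one library held 15.9 TPM uninduced and 27.3 induced, and without them the log2 fold change was -0.11. HSD17B4 was 2.99 times as abundant as EHHADH uninduced and 3.60 times induced.

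The branched-chain oxidase ACOX2, which acts on bile acid intermediates, was at 29.1 TPM uninduced and 28.7 induced, nearly level in TPM, while its fragment ratio was 0.85 with an interval of 0.76 to 0.95. Its coding transcripts together were at 19.5 and 14.0 TPM (log2 fold change -0.45), and each was lower. ENST00000474098 was at 3.51 and 0.30, ENST00000302819 at 13.7 and 12.5, and ENST00000459701 at 2.19 and 1.18. Its retained-intron transcripts together were at 6.08 and 12.3 TPM. ACOX3, the related oxidase, was at 6.86 and 7.16 TPM, with a fragment ratio of 0.85 whose interval of 0.70 to 1.04 spanned 1. For ACOX3 the TPM and the fragments thus pointed in opposite directions.

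SCP2 was at 137 TPM uninduced and 134 induced. Transcripts from the upstream start, which gives SCPx, summed to 34.9 and 35.5 TPM, or 25.5% and 26.5% of the gene. Those from the internal start summed to 102 and 98.7 TPM. Within the latter, ENST00000435345 was at 71.2 and 77.2 TPM and ENST00000408941 at 28.8 and 20.9. The shares of the starts differed by about 1 percentage point between the libraries. How far these shares depend on the division of fragments that match several transcripts was not tested.

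**Figure D3:**
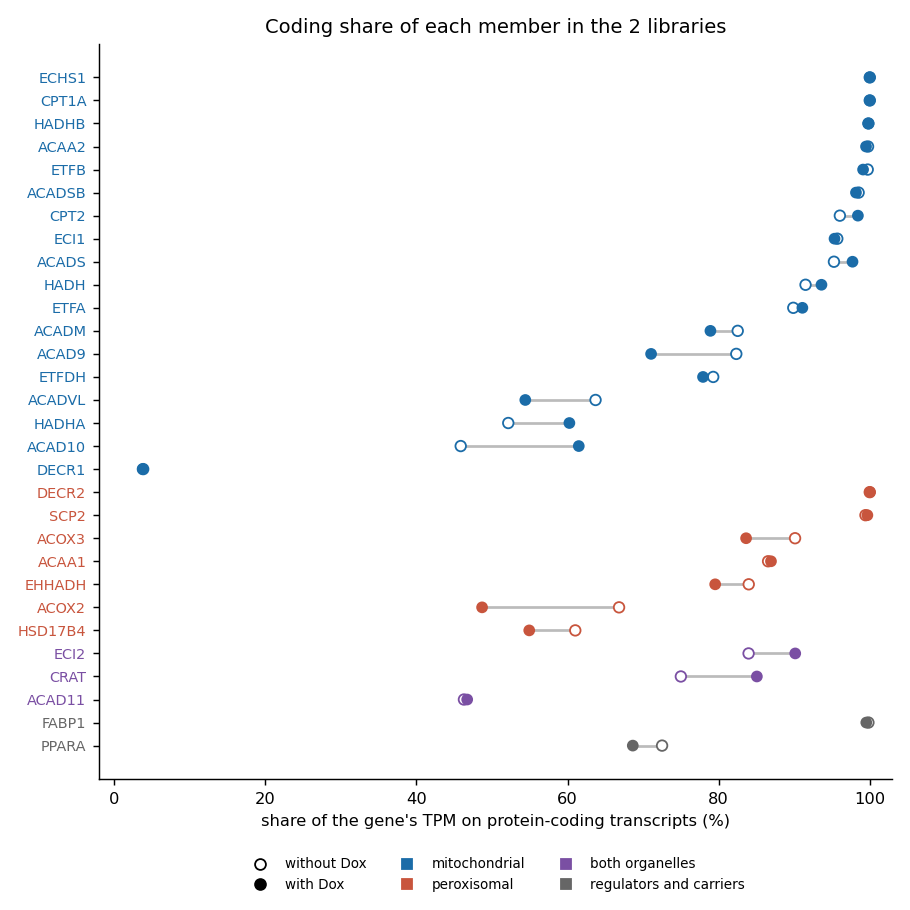
Share of each member's TPM on transcripts annotated as protein-coding, in the library without Dox (open) and with Dox (filled). ANGPTL4 and PDK4, at or below 1 TPM without Dox, are not drawn. Most members lie above 75%, DECR1 lies near 4% in both libraries, and ACOX2, ACAD10, ACAD9 and CRAT show the widest gaps of those drawn.

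Over the members together, transcripts annotated for nonsense-mediated decay held 7.78% of the TPM uninduced and 7.58% induced. All genes compared had 2.25% and 2.23%. HADHA, with 123 and 94.6 TPM of this kind, and DECR1, with 77.7 and 76.1, held most of it among the members. Retained-intron transcripts held 4.32% and 4.93% of the members' TPM, beside 4.60% and 4.55% for all genes.

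Of the regulators and carriers, FABP1 was at 590 TPM uninduced and 472 induced (-0.32). Its main transcript has 555 nt, below the length needed for a fragment estimate, so no counting interval was had. PPARA was at 12.3 and 14.5 TPM (0.22). This difference was divided among its transcripts: ENST00000407236 was at 7.72 and 5.33 TPM, and ENST00000262735, nearly as long, was listed at 0 and 3.46. Without transcripts listed at 0 in one library the log2 fold change of PPARA was -0.34, and in fragments its ratio was 1.09 (interval 1.01 to 1.17).

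PDK4, the kinase that turns off pyruvate dehydrogenase and a classic PPARA target in fasting, was listed at 0 uninduced and at 0.029 TPM induced. That is about 1 fragment, so the gene was close to undetected in both libraries. ANGPTL4, a secreted inhibitor of lipoprotein lipase that responds to PPARs, was at 0.98 and 1.14 TPM, or 23 and 32 fragments, with a ratio of 1.09 (interval 0.62 to 1.94).

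The comparison between organelles gave no difference that held across settings. The 18 mitochondrial members had a median log2 fold change of -0.11, with 14 lower and none at least 1.5-fold in either direction. The 7 peroxisomal members had a median of -0.03, with 5 lower and none at least 1.5-fold in either direction. Of all genes compared, 47.0% were lower and 9.22% passed that fold in either direction. The sums told the organelles apart even less, at 2158 and 2045 TPM for the mitochondrial members (-5.24%) and 448 and 424 TPM for the peroxisomal members (-5.37%). The peroxisomal median lay 0.08 above the mitochondrial one in TPM, but below it in fragments (a difference of -0.089, with no estimate for HSD17B4) and on coding transcripts (-0.042). Members are not replicates, so no test of this difference is given.

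The 3 members known from both organelles were the 3 with the lowest log2 fold changes of all 31, -0.62 for CRAT, -0.48 for ACAD11 and -0.375 for ECI2. ACAD10 and ECI1, at -0.372 and -0.370, lay close to ECI2. Part of the ACAD11 difference lay on ENST00000507705, listed at 2.78 TPM uninduced and 0 induced. Part of the ACAD10 difference lay likewise on ENST00000507688, at 1.48 and 0 TPM. By fragment ratio the order differed, with ACAD10 at 0.60 and ACAA1 at 0.74 below both ACAD11 and ECI2. It differed on coding transcripts alone too. There ACAD9 (-0.471) and ACOX2 (-0.451) were lower than CRAT (-0.449) and ACAD11 (-0.448), and ECI2 was at -0.27, above ECI1 and ACAA1. The sum of CRAT, ACAD11 and ECI2 was 285 TPM uninduced and 215 induced, or -24.3%. They were kept apart for their location, and with 3 genes this is a description. Counting them as peroxisomal gave a peroxisomal minus mitochondrial difference of -0.034, and counting them as mitochondrial gave 0.10.

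**Figure D4:**
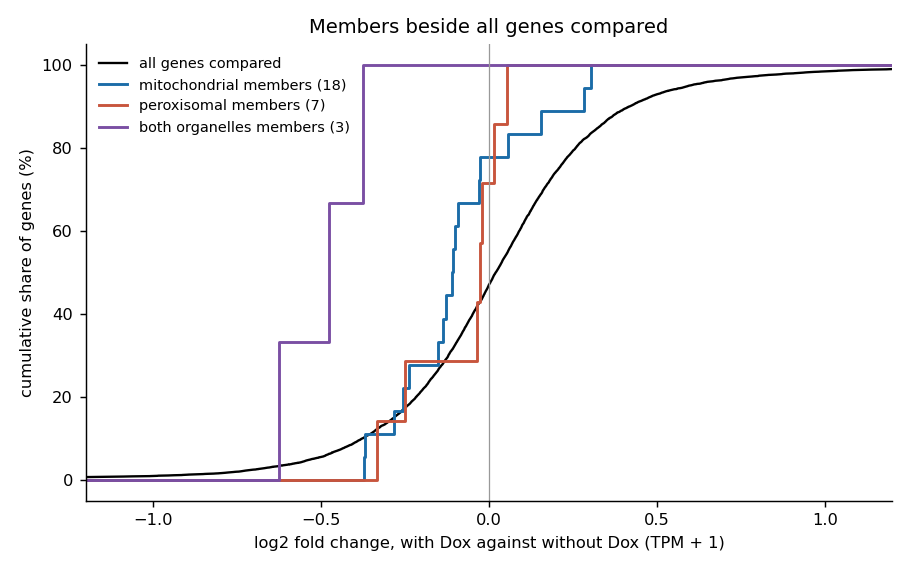
Cumulative share of genes by log2 fold change on the scale of TPM plus 1, for all 11582 genes compared (black) and for the mitochondrial, peroxisomal and both-organelle members. The 18 mitochondrial and 7 peroxisomal curves cross more than once, and the 3 members of both organelles lie to their left.

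**Figure D5:**
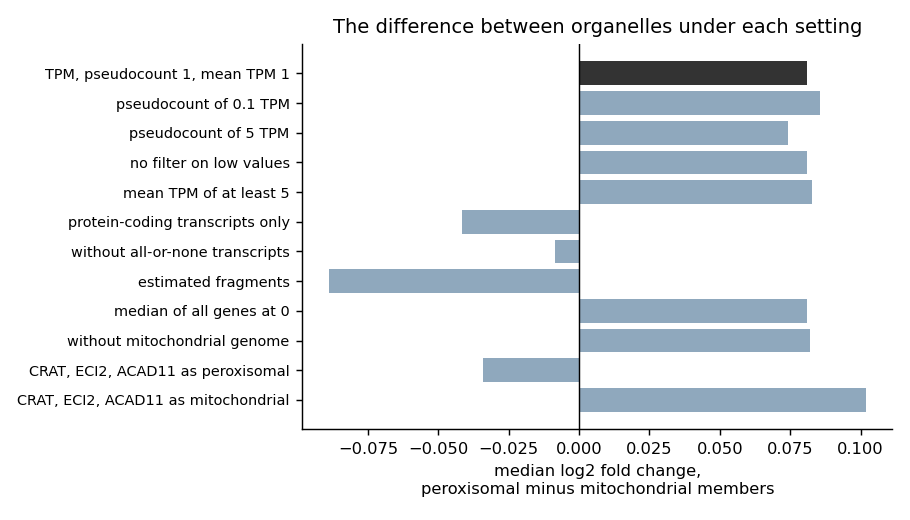
Peroxisomal minus mitochondrial median log2 fold change under the setting used in the text (dark bar) and each alternative (light bars). The bars fall on both sides of 0, from -0.089 to 0.10.

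SAMD4B belongs to a family that binds hairpins with the loop CNGG, and the leading coding transcript of each member was searched for such a loop, with up to 3 further bases, closed by 4 Watson-Crick pairs. At least 1 match lay in 16 of the 31 members (51.6%) and in 63.6% of the 11054 genes with a coding transcript. Matches per kilobase were 0.37 in members and 0.44 in all genes. The 16 members with a match had a median log2 fold change of -0.12 and the 15 without a match -0.10. Of the 30 matches, 19 lay in coding sequence, 9 in the 3′ UTR and 2 in the 5′ UTR. ECI1 had 4, as did the longer ACAD10, while CRAT had none. The 3 ECI1 matches that lie within an exon are shown with the loop in capitals, on the minus strand of chromosome 16 (GRCh38), the first in the 5′ UTR (2251337 to 2251350) and the others in coding sequence (2243157 to 2243170 and 2243106 to 2243119).
ECI1 site a: ccagCGGGTGctgg
ECI1 site b: gcagCTGGGGctgc
ECI1 site c: ggacCAGGTGgtcc

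These letters are matches in sequence only. No binding was measured in these data.

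Genes around the members were taken from 11 lists. For each count below, 47.0% of all genes compared were lower, with a median of 0.02. At least 1.5-fold in either direction were 9.22% of all genes. Of the list of fatty acid uptake and activation, 8 of 13 compared were lower, with a median of -0.10. ACSL1, which activates long-chain fatty acids, was at 8.41 TPM uninduced and 15.2 induced (0.78), the only gene of the list at least 1.5-fold apart. ACSL4 was at 18.4 and 22.8 TPM. The fatty acid transporter SLC27A4 was at 9.59 and 7.07 TPM, and ACSF2 at 53.1 and 40.3. Carnitine supply and transport had 3 of 5 lower and a median of -0.12, with CPT1B at 1.202 and 0.95 TPM, the carnitine transporter SLC22A5 at 3.35 and 4.30, and TMLHE, of carnitine synthesis, at 8.86 and 10.1.

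Other mitochondrial acyl-CoA enzymes had 9 of 17 lower and a median of -0.05, with MMAB, of cobalamin metabolism, at 48.2 and 34.9 TPM and the thioesterase ACOT9 at 28.4 and 35.8. MLYCD, which removes malonyl-CoA, was at 1.33 and 0.82 TPM, and HSD17B10 at 69.2 and 75.5. Other peroxisomal enzymes and transporters had 11 of 19 lower and a median of -0.04. In that list AGXT, which detoxifies glyoxylate, was at 7.53 and 4.36 TPM (-0.67), and CROT, the peroxisomal carnitine octanoyltransferase, at 6.50 and 4.28 (-0.51). The protease LONP2 was at 35.9 and 40.2 TPM. The peroxins, which build the organelle, had 8 of 13 lower and a median of -0.07. PEX16 was at 10.2 and 7.21 TPM, PEX3 at 22.6 and 18.6, and PEX14 at 12.5 and 15.2.

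Known PPARA targets outside the members went both ways. Of 7 compared, 5 were lower (71.4%, beside 47.0% of all genes), with a median of -0.32. Of these 7, 2 passed the 1.5-fold limit upward and 2 downward, beside 5.32% and 3.90% of all genes. The 7 summed to 259 TPM uninduced and 408 induced, of which PLIN2 alone held 190 and 351. The median was -0.19 on coding transcripts, and -0.10 over 13 genes without the filter on low values. PLIN2, a lipid droplet coat protein, was at 190 TPM uninduced and 351 induced (0.88), beside ACSL1. TXNIP, a glucose-responsive arrestin, was at 11.01 and 5.92 TPM (-0.80), and the lipid droplet protein CIDEC at 8.64 and 4.65 (-0.77). The PPAR receptors, partners and coactivators had 5 of 11 lower and a median of 0.01, with ESRRA at 10.3 and 13.7 TPM, the corepressor NCOR1 at 82.8 and 99.0, PPRC1 at 25.0 and 20.7, and the coactivator NCOA2 at 19.1 and 16.0.

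The pyruvate dehydrogenase complex and its regulators had 5 of 10 lower and a median of 0.00. PDP1, the phosphatase that activates the complex, was at 3.51 TPM uninduced and 7.45 induced (0.91). Of the kinases that act like PDK4, PDK1 was at 17.0 and 24.3 TPM, and PDK2 at 18.1 and 15.0. DLD, the dehydrogenase subunit of the complex, was at 193 and 168 TPM. Among ketone body enzymes 3 of 5 were lower, with BDH2 at 17.3 and 10.2 TPM (-0.71) and BDH1 at 51.6 and 38.9 (-0.40), beside OXCT1 at 1.03 and 1.45. The flavin supply list had a median of -0.03 over 4 genes, with the mitochondrial carrier SLC25A32 at 28.1 and 35.2 TPM, ETFRF1 at 20.7 and 16.7, FLAD1 at 15.6 and 13.9, and RFK at 17.8 and 19.0. The other FABP and ANGPTL genes had a median of 0.10 over 4 (-0.12 in fragments, over 3), with ANGPTL1 at 12.7 and 18.6 TPM, FABP3 at 30.5 and 37.1, FABP5 at 34.4 and 32.6, and FABP2 at 2.73 and 2.49.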

How the data were processed

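The authors deposited 1 table of TPM values for 184844 Ensembl transcripts in 2 libraries, and each column summed to 1000000. Trimmomatic, Salmon and GRCh38.p13 are named in the submitters' processing notes, while the versions, options, annotation release and use of strand behind the table were not given in the sources used here. Transcripts were named through GENCODE release 29 by identifier without version (161798 matched, 93.3% of the TPM in each library). TPM was summed per gene and compared as log2((with Dox + 1)/(without Dox + 1)) for genes with a mean of at least 1 TPM. In the step estimate, TPM multiplied by length less 310 nt lay within 0.1 of a whole multiple of one value for 76.5% and 79.9% of values under 5.5 fragments. These steps gave the depth estimates. Fragment ratios were given where at least 80% of the TPM lay on transcripts of at least 600 nt. The procedure was tested on simulated data. Python 3.11.15, scipy 1.17.1 and matplotlib 3.10.9 were used. Named were all members, SAMD4B, and up to 2 genes at each end of each other list. A few of these genes are not reported here. Other markers and transcripts named beside them were chosen after their values were seen. The members and lists were chosen with earlier results of these data known.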

Additional observations from a re-analysis of the deposited data

How the results depend on the processing

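With 1 library per group, no spread between cultures is known, and genes with few fragments, such as PDK4 and ANGPTL4, can show only large differences at this depth. The count of members at least 1.5-fold lower, 1 in the text, was 0 with a pseudocount of 5 TPM and on coding transcripts, 2 in estimated fragments (CRAT and ACAD10), 7 (12.9% of all genes) where the uninduced value had to be at least 25% above the induced one, and 0 at a fold of 2. The peroxisomal median was -0.23 in fragments. The peroxisomal minus mitochondrial median, 0.08 in the text, was -0.042 on coding transcripts, -0.089 in fragments, -0.034 with CRAT, ECI2 and ACAD11 as peroxisomal, and -0.01 without transcripts listed at 0 in one library. The ketone body list had a median of 0.21 in fragments, where 3 genes had an estimate. Other list medians changed sign too: in fragments peroxins (0.017), other FABP and ANGPTL genes (-0.12) and PPAR partners (-0.0026), without a filter carnitine supply (0.058) and flavin supply (0.067), with a mean of at least 5 TPM other mitochondrial enzymes (0.0057), without the mitochondrial genome flavin supply (0.079), and with the median of all genes at 0 PPAR partners (-0.0084) and the pyruvate dehydrogenase list (-0.019). The cause of these shifts was not tested. Of the log2 fold changes of single members, 6 of 29 moved by more than the half-width of their counting interval (the median half-width, 0.11, where a member had none) in fragments, 7 of 30 on coding transcripts, 4 of 31 without transcripts listed at 0 in one library, and none under the 6 other settings that apply to them, though HSD17B4 took the lower sign with the median of all genes at 0. No paired analysis was possible because each group has 1 library.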
